A study of Mus musculus with 4 samples.

Results

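The TAM family is a small group of receptor tyrosine kinases, Tyro3, Axl and Mertk, with the secreted ligands Gas6 and protein S, the product of Pros1. It was examined in nascent RNA of C2C12 myotubes, the multinucleated muscle cells formed by a mouse myoblast line. The members were the rows of the count table that carry one of these 5 gene symbols, and each symbol had 1 row, so the family makes up 5 of 23282 genes. They were chosen with the response to dexamethasone already known, because Mertk stood out in it. The dexamethasone values of the 5 genes are therefore given as a description and carry no test.

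All cells had been deprived of steroids. They then received vehicle or 1 µM dexamethasone, a synthetic agonist of the glucocorticoid receptor, for 2 h, and RNA held in the chromatin of isolated nuclei was sequenced. There were 2 libraries per group, from a single cell line labelled female, and nothing in the labels says whether the libraries came from separate cultures. Any p-value below from a fit with groups alone thus measures the spread between these libraries, which may be technical. Some fits also take the replicate number as a block. Their p-values measure only the spread left once the replicate difference is removed, which so few libraries estimate poorly.

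The TAM receptors sit at the cell surface and bind their ligands through immunoglobulin-like domains. Gas6 and protein S act as bridges, since their vitamin K dependent Gla domain binds phosphatidylserine exposed on dying cells, activated platelets or fusing cells, while the other end of the ligand binds the receptor. Gas6 can activate each of the receptors, whereas protein S acts through Mertk and Tyro3 and is also a plasma anticoagulant. Mertk is best known in macrophages and retinal pigment epithelium, where it drives the uptake of apoptotic cells and shed photoreceptor membrane, and its induction by glucocorticoids in macrophages is well known.

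Sequence upstream of the transcription start is shown for Mertk and Gas6, the members that were higher in both dexamethasone libraries, and for Axl, which had similar levels in both groups. Each is the 250 bases before the RefSeq start in GRCm38.p6, read 5′ to 3′ on the gene's strand, with GC boxes in capitals (GGGCGG on either strand, a motif bound by Sp1-type factors).
Mertk, chr2:128698665-128698914, plus strand: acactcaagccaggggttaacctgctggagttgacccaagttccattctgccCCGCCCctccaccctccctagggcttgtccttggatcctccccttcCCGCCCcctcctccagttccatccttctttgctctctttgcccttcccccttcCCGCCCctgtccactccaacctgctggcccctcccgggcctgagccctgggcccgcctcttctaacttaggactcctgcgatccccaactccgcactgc
Gas6, chr8:13494536-13494785, minus strand: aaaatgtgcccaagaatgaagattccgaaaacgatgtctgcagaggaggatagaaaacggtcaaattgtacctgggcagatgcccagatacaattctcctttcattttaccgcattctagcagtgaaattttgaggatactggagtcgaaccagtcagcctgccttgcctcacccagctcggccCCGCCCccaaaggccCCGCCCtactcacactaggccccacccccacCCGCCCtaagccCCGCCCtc
Axl, chr7:25788734-25788983, minus strand: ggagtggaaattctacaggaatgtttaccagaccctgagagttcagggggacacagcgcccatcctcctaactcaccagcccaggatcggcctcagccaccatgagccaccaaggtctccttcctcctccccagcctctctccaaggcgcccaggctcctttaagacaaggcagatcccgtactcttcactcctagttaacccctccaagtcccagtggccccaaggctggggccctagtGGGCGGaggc
The Mertk window held 3 GC boxes, the Gas6 window 4 and the Axl window 1, while those of Tyro3 and Pros1 held 3 and 5, some overlapping each other in Pros1. Over all 32851 RefSeq windows of this length, 32.7% held at least 1 GC box, and all 5 members did. The full glucocorticoid response element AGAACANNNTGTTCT, searched on both strands, was found in 3 of the 32851 windows (0.00913%) and in none of the 5. One arm of it, AGAACA on either strand, was found in 16.1% of all windows and in none of the 5. The absence of these letters speaks only of these 250 bases.

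The libraries held 19631435 and 35116830 counts with vehicle and 32463331 and 88596296 with dexamethasone. Values are CPM, each count divided by the library total after TMM scaling (scaled CPM). The 12 myotube markers were all detected. They summed to 45942 to 129860 scaled CPM in vehicle and 44891 to 125447 in dexamethasone, and in both groups replicate 1 held the higher sum. Most of each sum was Ttn, at 118127 and 41070 in vehicle 1 and 2 and 113355 and 39943 in dexamethasone 1 and 2. Of 14 macrophage markers, Cx3cr1 belongs to 371 consecutive same-strand genes with 0 in every library and was not read. Of the other 13, 9 had fewer than 10 counts in every library. Among them Adgre1 had 0, 1, 1 and 3 counts and C1qa none, and the list summed to 6.14 to 7.30 scaled CPM in vehicle and 5.50 to 8.01 in dexamethasone, nearly all of it from Cd68 and Itgam. The 7 markers of proliferating myoblasts summed to 59.3 and 63.2 scaled CPM in vehicle and to 45.4 and 52.9 in dexamethasone. The lower sums come from Pax7, at 32.0 and 39.0 with vehicle and 17.9 and 22.9 with dexamethasone. The other 6 markers summed to 27.3 and 24.2 with vehicle and to 27.5 and 30.0 with dexamethasone, and the part of these markers in the results below was not tested. In bulk RNA, fewer cells of a type and less RNA per cell cannot be told apart.

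Mertk carried by far the widest difference of the family. With vehicle it had 224 and 513 counts, and with dexamethasone 6208 and 16691. Scaled to depth these are 12.02 and 13.5 against 207 and 179 CPM, or 12.8 ± 1.06 against 193 ± 20.1 (SD, n = 2 each). Both treated libraries lay far above both controls, and the spread within either group was small beside the gap. The group means differed 15.1-fold, and the fitted log2 fold change was 3.91 (SE 0.163). Within the same replicate number the ratio was 17.2 for number 1 and 13.2 for number 2. When single libraries were dropped in turn, its log2 fold change stayed between 3.81 and 4.02. Mertk ranked 14th of 13285 tested genes by log2 fold change, counting from the highest.

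**Figure D1:**
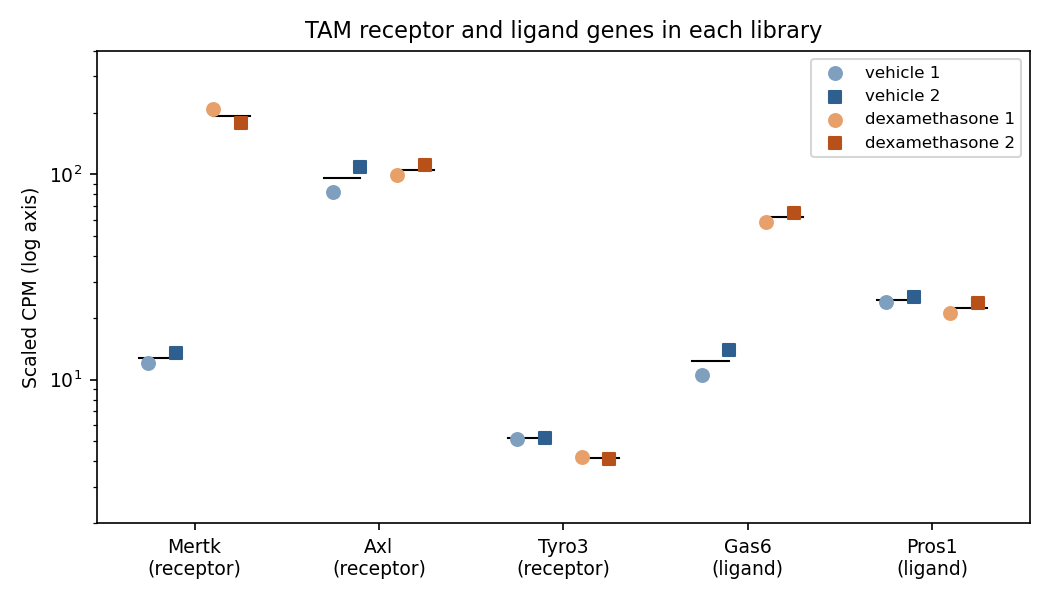
Scaled CPM (log axis) of the 5 TAM genes in each of the 4 libraries; points are libraries, circles replicate 1 and squares replicate 2, and black lines are group means of 2 libraries. Mertk had means of 12.8 with vehicle and 193 with dexamethasone and Gas6 of 12.3 and 61.8, while the Axl libraries overlap between groups.

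The other receptors did not share this pattern. Axl, the receptor most tightly tied to Gas6, had 1535 and 4125 counts with vehicle and 2975 and 10355 with dexamethasone, which is 82.3 and 108.7 against 99.3 and 110.9 scaled CPM. The groups overlap, and the difference between the means of 95.5 ± 18.6 and 105 ± 8.24 (SD, n = 2 each) is smaller than the SD of the vehicle group. The log2 fold change was 0.14 (SE 0.182), which became -0.05 when vehicle replicate 1 was dropped and 0.36 when vehicle replicate 2 was.

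Tyro3, the TAM receptor best known from the nervous system, had the fewest counts of the family. It had 96 and 197 counts with vehicle and 126 and 384 with dexamethasone, or 5.15 and 5.19 against 4.20 and 4.11 scaled CPM. Both treated libraries were slightly below both controls, with means of 5.17 ± 0.0295 and 4.16 ± 0.0644 (SD, n = 2 each) and a log2 fold change of -0.31 (SE 0.207). The counting error of vehicle replicate 1 alone (the square root of its count) is 0.526 scaled CPM, wider than these SDs, so the fitted SE is the better guide to the error.

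Among the ligands, Gas6 differed in the same direction as Mertk. It had 197 and 532 counts with vehicle and 1763 and 6049 with dexamethasone, or 10.6 and 14.0 against 58.8 and 64.8 scaled CPM. The groups are well apart, with means of 12.3 ± 2.44 and 61.8 ± 4.22 (SD, n = 2 each). The means differed 5.03-fold, and the log2 fold change was 2.32 (SE 0.199). The ratio was 5.57 within replicate number 1 and 4.62 within number 2, and the log2 fold change ran from 2.14 to 2.56 when single libraries were left out. Gas6 ranked 54th of 13285 genes by log2 fold change.

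Pros1 encodes protein S, the other ligand. It had 444 and 958 counts with vehicle and 636 and 2201 with dexamethasone, or 23.8 and 25.2 against 21.2 and 23.6 scaled CPM. The treated libraries were below the controls by a narrow margin, 23.6 at the highest against 23.8 at the lowest, with means of 24.5 ± 1.01 and 22.4 ± 1.66 (SD, n = 2 each) and a log2 fold change of -0.13 (SE 0.148).

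Over the family, 2 members had both dexamethasone libraries above both vehicle libraries (15.0% of all tested genes did), 2 had both below (12.9% of all tested genes), and 1 overlapped. All 5 passed the filter on low counts. Since this contrast chose the members, nothing is read from these counts.

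Levels of different genes were compared per kb of annotated exon. In vehicle, Axl was highest at 19.0 ± 3.70 scaled CPM per kb, followed by Pros1 at 6.001 ± 0.247, Gas6 at 4.82 ± 0.958, Mertk at 2.94 ± 0.245 and Tyro3 at 0.834 ± 0.00477 (SD, n = 2 each). Pros1 and Gas6 are neighbours in this order that lie closer together than the sum of their SDs. In dexamethasone the order was Mertk at 44.5 ± 4.62, Gas6 at 24.3 ± 1.66, Axl at 20.9 ± 1.64, Pros1 at 5.48 ± 0.407 and Tyro3 at 0.671 ± 0.0104. Gas6 and Axl differ there by about the sum of their SDs.

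Because the sources used here do not say whether introns were counted, and nascent RNA holds many, the same levels were also taken per kb of the whole gene. Mertk spans 104 kb and Axl 31.4 kb, so this choice matters. Per kb of gene span, the vehicle order was Axl (3.04 ± 0.593), Gas6 (0.422 ± 0.0838), Pros1 (0.327 ± 0.0135), Tyro3 (0.254 ± 0.00145) and Mertk (0.123 ± 0.0102). In dexamethasone Axl (3.34 ± 0.262) stayed first, ahead of Gas6 (2.12 ± 0.145) and Mertk (1.86 ± 0.193). Gas6 and Pros1 in vehicle, and Gas6 and Mertk in dexamethasone, lie closer together on this length than the sum of their SDs. Whether Mertk or Axl had the highest level of the TAM receptor genes after dexamethasone therefore turns on the length used. These are levels of RNA held in chromatin, and receptor protein was not measured here.

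On both lengths the make-up of the summed receptor RNA differed between the groups. Per exonic kb, Mertk was 13.9% and 12.2% of the summed TAM receptor level with vehicle and 70.1% and 64.5% with dexamethasone, and Axl went from 82.0% and 84.5% to 28.9% and 34.5%. Per kb of gene span, Mertk was 3.87% and 3.38% with vehicle and 37.2% and 31.6% with dexamethasone. Among the ligands, Gas6 was 41.6% and 47.1% of the summed level per exonic kb with vehicle and 81.6% and 81.5% with dexamethasone, and 53.3% and 58.9% against 87.7% and 87.6% per kb of gene span. The summed receptor level per exonic kb was 22.8 ± 3.95 with vehicle and 66.0 ± 2.998 with dexamethasone, and the summed ligand level 10.8 ± 1.21 and 29.7 ± 2.06 (SD, n = 2 each). These sums follow from the member values above and add no separate evidence.

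**Figure D2:**
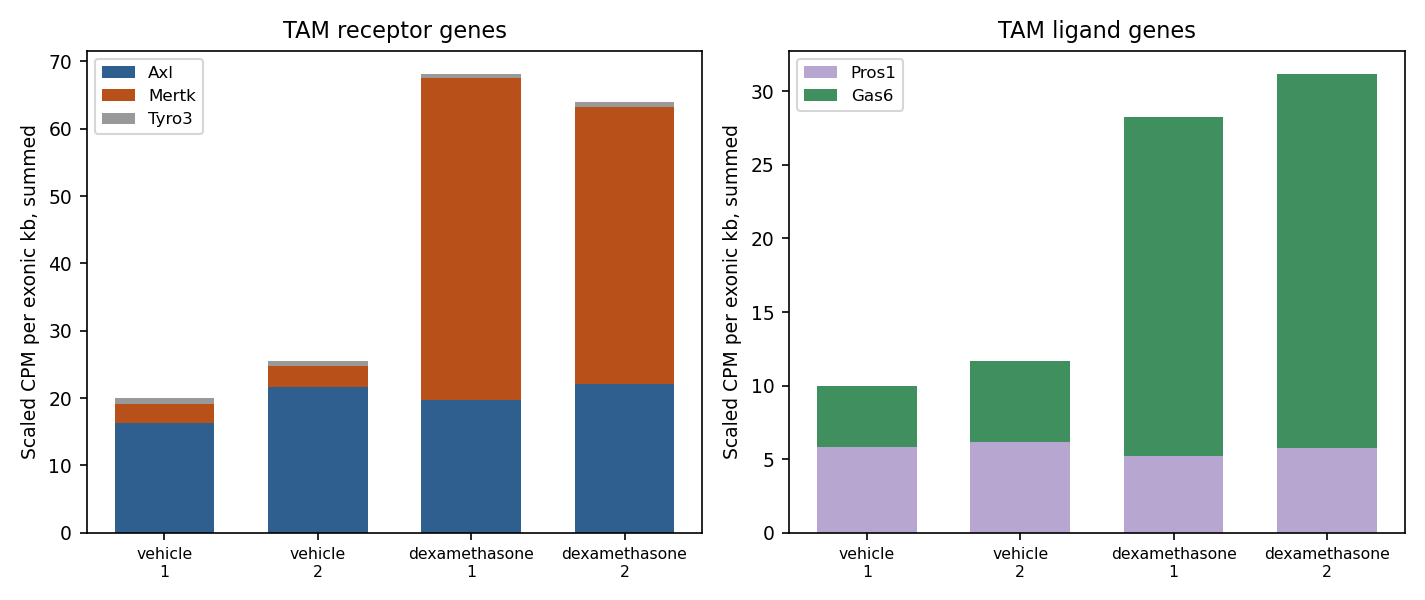
Scaled CPM per exonic kb in each of the 4 libraries, stacked for the 3 TAM receptor genes and for the 2 ligand genes. Axl makes up most of the receptor bars with vehicle (82.0% and 84.5%) and Mertk with dexamethasone (70.1% and 64.5%); per kb of gene span Axl remained above Mertk in the treated libraries.

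Replicate number left a smaller mark on the members than treatment did on Mertk and Gas6. The ratio of replicate 2 to replicate 1 was 1.13 with vehicle and 0.863 with dexamethasone for Mertk, 1.33 and 1.101 for Gas6, 1.32 and 1.12 for Axl, 1.01 and 0.978 for Tyro3 and 1.06 and 1.11 for Pros1. Axl, Gas6 and Pros1 were thus higher in replicate 2 in both groups. For Axl the step between groups within a replicate number was of like size, 1.21 for number 1 and 1.02 for number 2.

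Few annotated genes share the members' positions. Mertk, on chromosome 2, is overlapped by the antisense gene Gm14011 and the small RNA gene Gm23172, which were not analysed here. Gas6, on chromosome 8, is overlapped on the opposite strand by Tmem255b, which had 1, 6, 5 and 7 counts in vehicle 1 and 2 and dexamethasone 1 and 2. The strand setting of the counting is not given in the sources used here, so reads of overlapping partners could not be separated. Axl lies on chromosome 7, Tyro3 on chromosome 2 and Pros1 on chromosome 16, with no overlapping gene in the annotation.

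To see whether the difference at Mertk extended to the genes around it, the 5 genes of the table on each side were examined, all of them abundant enough to test. By edgeR's quasi-likelihood test, adjusted over all genes by the Benjamini-Hochberg method, 0 of 10 were called higher (0.0376% of all tested genes were) and 0 lower (0.00%). At an unadjusted p under 0.05 there was 1 higher (4.09% of all genes) and 1 lower (1.69%). The Wald test of DESeq2 called 0 in either direction (1.77% of all genes higher and 0.399% lower). With the replicate number as a block, edgeR called 1 higher, Tmem87b (adjusted p 0.00362), and 1 lower, Ttl (adjusted p 0.0101), where 6.87% of all genes were called higher and 5.78% lower. Their log2 fold changes ran from -1.16 to 1.07. Anapc1, a subunit gene of the anaphase-promoting complex and the next gene on one side, was at 0.11 (SE 0.118). Tmem87b, the next on the other side, had 62.1 and 58.3 scaled CPM with vehicle and 86.8 and 80.4 with dexamethasone, a log2 fold change of 0.47 (SE 0.126, edgeR adjusted p 0.492). Both of its treated libraries were above the controls, but the difference did not pass without the block. The pair farthest from zero, Fbln7 (-1.16, SE 0.433, edgeR adjusted p 0.852) and Acoxl (1.07, SE 0.465, edgeR adjusted p 0.979), rested on 16 to 115 counts per library. The apoptosis gene Bcl2l11 was at 0.11 (SE 0.255) and the long noncoding RNA Morrbid at -0.17 (SE 0.123). Bub1, Zc3h8, Zc3h6 and Ttl were at 0.47 (SE 0.301), -0.08 (SE 0.262), 0.20 (SE 0.139) and -0.44 (SE 0.244), with an edgeR adjusted p of 1.00 each.

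**Figure D3:**
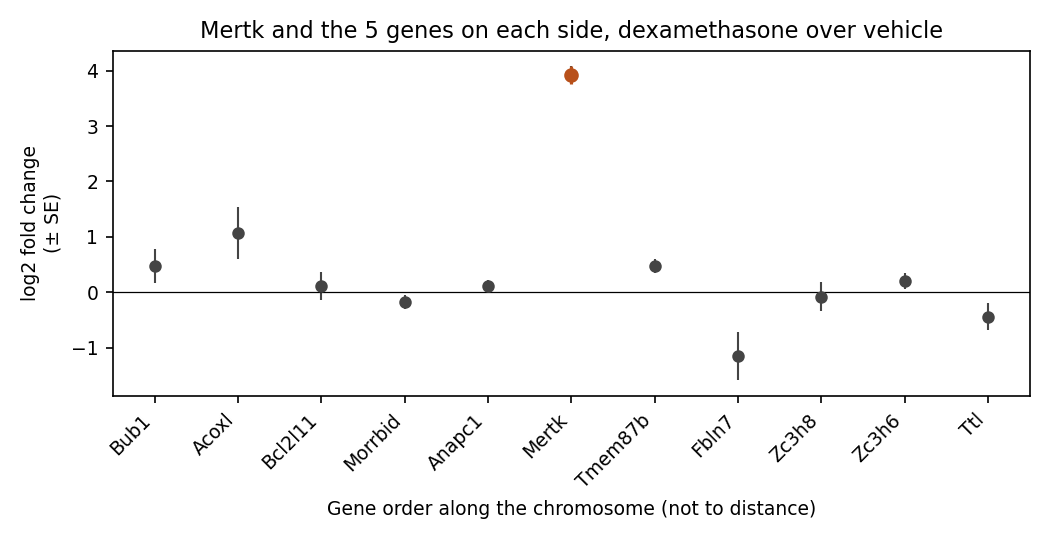
Log2 fold change (dexamethasone over vehicle) with its SE for Mertk, in orange, and for the 5 genes on each side in chromosome order, not to distance. Mertk is at 3.91 and its neighbours lie between -1.16 and 1.07.

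Mertk was then placed among the other receptor tyrosine kinases, a class of cell surface receptors, most of which phosphorylate tyrosines when a ligand binds. Of 55 other genes of this class, 38 had enough counts to test. In edgeR, adjusted over all genes, 0 of these were called higher (0.0376% of all tested genes were) and 0 lower (0.00%). An unadjusted p under 0.05 was reached by 4 higher and 4 lower genes (4.09% and 1.69% of all genes), and the Wald test of DESeq2 called Ror1 alone, so 1 higher and 0 lower (1.77% and 0.399% of all genes). With the replicate number as a block, edgeR called 5 higher and 13 lower (6.87% and 5.78% of all genes). Their median log2 fold change was -0.14, against 0.00 over all genes, and 6 lay apart upward and 12 downward (15.0% and 12.9% of all genes). Mertk had the highest log2 fold change of the 41 tested receptors, and Axl and Tyro3 ranked 11th and 27th.

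The nearest in size was Ror1, a receptor of the Wnt5a pathway. It had 1714 and 2703 counts with vehicle and 20304 and 37498 with dexamethasone, or 91.9 and 71.2 against 677 and 402 scaled CPM. The groups are well apart, but the treated libraries differ widely, and its log2 fold change of 2.73 (SE 0.321) had an edgeR adjusted p of 0.126. It passed with the same test in 3 of the 4 fits that left out one library (edgeR adjusted p 0.0187 without vehicle replicate 2, 0.0329 when dexamethasone replicate 1 was dropped and 0.00828 when dexamethasone replicate 2 was), where the lone library is assumed to vary like the other group. Ret, the receptor of GDNF-family ligands, was at 1.92 (SE 0.456, edgeR adjusted p 0.406) on 3, 6, 17 and 60 counts. Pdgfra was at 1.04 (SE 0.278, edgeR adjusted p 0.503) and Pdgfrb at -0.92 (SE 0.329, edgeR adjusted p 0.799). These platelet-derived growth factor receptors, best known from mesenchymal cells, thus pointed in opposite directions, each with its groups apart. Under the replicate block, edgeR's adjusted p was 5.94e-05 for Ror1, 0.0347 for Ret, 0.0172 for Pdgfra and 0.000278 for Pdgfrb. Erbb4 had the lowest value of the class, -3.05 (SE 1.73), but its groups overlap, with 167 counts in vehicle replicate 1 against 6 in vehicle replicate 2.

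Per exonic kb, the highest of these receptors in vehicle were Musk (61.0 ± 0.252), the agrin-responsive kinase of the neuromuscular junction, Igf1r (43.9 ± 0.417) and Ddr2 (38.1 ± 1.95), a collagen receptor (scaled CPM per kb, SD, n = 2 each). Mertk ranked 27th of 41 in vehicle and 4th in dexamethasone on this scale, and 29th and 11th per kb of gene span. Axl ranked 6th and 7th per exonic kb, and 5th and 3rd per kb of gene span. On gene span the highest of the other receptors in vehicle were Ephb3 (4.48), Pdgfrb (4.17) and Erbb3 (3.79). Igf1r, Musk and Ddr2 ranked 6th, 7th and 8th of 41 there. Against all tested genes, the Mertk level per exonic kb moved from the percentile 40.3 to 95.5, and per kb of gene span from 18.002 to 72.8.

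**Figure D4:**
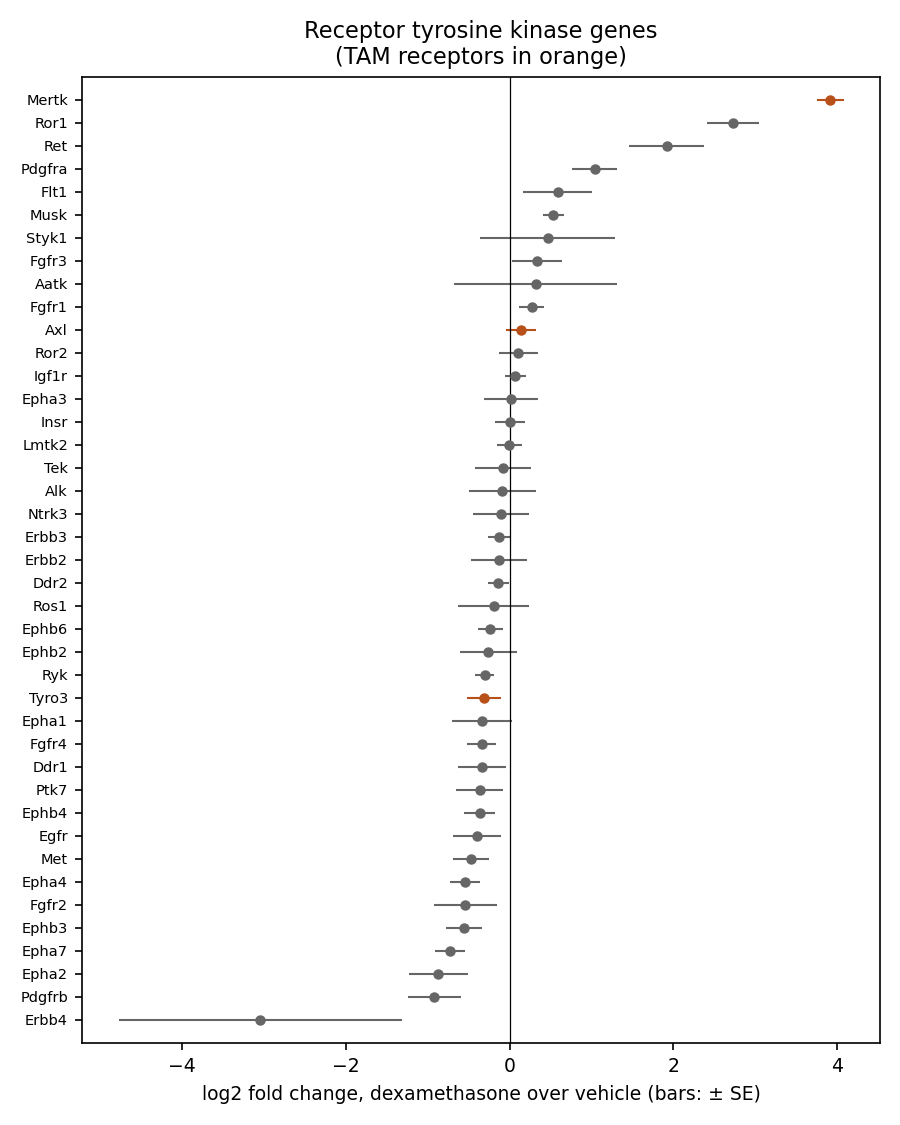
Log2 fold change (dexamethasone over vehicle) with its SE for the 41 tested receptor tyrosine kinase genes, ordered by value, with the TAM receptors in orange. Mertk is at 3.91, Ror1 at 2.73, Axl at 0.14 and Tyro3 at -0.31.

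The other genes of the pathway were taken from a list of 87 by role, of which 69 were tested. In edgeR, adjusted over all genes, 0 of these were called higher (0.0376% of all tested genes were) and 0 lower (0.00%). An unadjusted p under 0.05 was reached by 4 higher and 2 lower genes (4.09% and 1.69% of all genes), and the Wald test of DESeq2 called 3 and 1 (1.77% and 0.399%). With the replicate number as a block, edgeR called 9 higher and 5 lower, where 6.87% of all genes were called higher and 5.78% lower. Cblb, Pik3r1 and Nr3c1 are among the unadjusted, DESeq2 and block counts. They were known from earlier results of these data when the list was made, so these counts give no separate support. The median log2 fold change was 0.02, against 0.00 over all genes, and the range -1.03 to 1.185, which leaves both Mertk and Gas6 outside it. Both treated libraries were above both controls in 10 of the 69 and below in 10, where the shares of all genes were 15.0% and 12.9%.

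Genes that make the ligands and trim the receptors were near zero. The vitamin K cycle is needed to carboxylate Gas6 and protein S, and its carboxylase Ggcx was at 0.02 (SE 0.154), with Vkorc1l1 at -0.07 (SE 0.130) and Vkorc1, on 13 to 68 counts, at 0.02 (SE 0.389). Adam17 and Adam10, the proteases that shed Mertk and Axl, were at -0.09 (SE 0.126) and 0.02 (SE 0.236). Of 5 partners of protein S in coagulation, 2 were tested, Tfpi at 0.06 (SE 0.178) and Thbd at 0.05 (SE 0.480).

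The listed role of other phosphatidylserine receptors and bridges held 24 genes, with 15 tested. It was drawn broadly, and not every gene in it binds phosphatidylserine or acts apart from the TAM receptors. At the top, Havcr2, which encodes the receptor TIM-3, had 2.95 and 2.08 scaled CPM with vehicle and 4.87 and 4.21 with dexamethasone, a log2 fold change of 0.86 (SE 0.293, edgeR adjusted p 0.751). At the bottom, Itgb3, the integrin β3 gene, was at -0.55 (SE 0.188, edgeR adjusted p 0.762). Lgals3 (galectin-3) was at -0.34 (SE 0.145) and Calr (calreticulin) at 0.32 (SE 0.156), with groups apart and an edgeR adjusted p of 0.977 and 1.00. Under the replicate block, edgeR's adjusted p was 0.0159 for Havcr2, 0.0317 for Itgb3, 0.0205 for Lgals3 and 0.0282 for Calr. Timd4, C1qa and C1qc were at 0 counts in all 4 libraries. Of the 9 genes that expose or hide phosphatidylserine, 6 were tested. Plscr1 was at 0.48 (SE 0.206), Xkr8, a scramblase, at 0.30 (SE 0.309) and the scramblase gene Ano6 at -0.22 (SE 0.121). With the block, edgeR's adjusted p was 0.0190 for Plscr1 and 0.0435 for Ano6, and Xkr8 did not pass. Tmem30a lies in a run of genes listed at 0 and was not read.

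Engulfment and signalling genes held the widest values of the list. Vav2, a guanine nucleotide exchange factor, had 126 and 185 scaled CPM with vehicle and 299 and 342 with dexamethasone, a log2 fold change of 1.04 (SE 0.227, edgeR adjusted p 0.349). The adaptor Bcar1 was at 0.34 (SE 0.163) and the lipid exporter Abca1 at 0.32 (SE 0.177), with an edgeR adjusted p of 1.00 each. Under the replicate block Bcar1 passed (edgeR adjusted p 0.0346) and Abca1 did not. Cblb, a ubiquitin ligase that acts on receptor tyrosine kinases including TAM receptors, had 439 and 410 scaled CPM with vehicle and 1097 and 835 with dexamethasone, a log2 fold change of 1.185 (SE 0.186, edgeR adjusted p 0.201). Pik3r1, the p85α subunit of PI3-kinase, was at 0.86 (SE 0.133, edgeR adjusted p 0.195). All 3 of Vav2, Cblb and Pik3r1 had groups apart and passed under DESeq2's Wald test (adjusted p 0.00835 for Vav2, 6.10e-05 for Cblb and 0.00159 for Pik3r1) but not in edgeR with a group term alone. Cblb and Pik3r1 were known from earlier results of these data when the list was made, so their p-values are no separate support. With the replicate number as a block, edgeR's adjusted p was 0.000796 for Vav2, 0.000349 for Cblb and 0.000336 for Pik3r1, and Vav2 also passed without vehicle replicate 2 (edgeR adjusted p 0.0480). Ifnar2, a subunit gene of the interferon receptor through which TAM receptors act, was at -0.16 (SE 0.148). The related ligase gene Cbl lies in a run of genes listed at 0 and was not read.

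Of 8 regulators known to act on Mertk or TAM genes in other cells, Nr3c1, the glucocorticoid receptor gene, had groups apart, at -1.03 (SE 0.251, edgeR adjusted p 0.430, DESeq2 Wald adjusted p 0.0174). Under the replicate block its edgeR adjusted p was 0.000235. Nr3c1 was known from earlier results of these data when the list was made, so its p-values are no separate support. The liver X receptor genes Nr1h3 and Nr1h2 were at -0.12 (SE 0.288) and 0.03 (SE 0.310), and Rxra at -0.29 (SE 0.324), with overlapping groups.

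**Figure D5:**
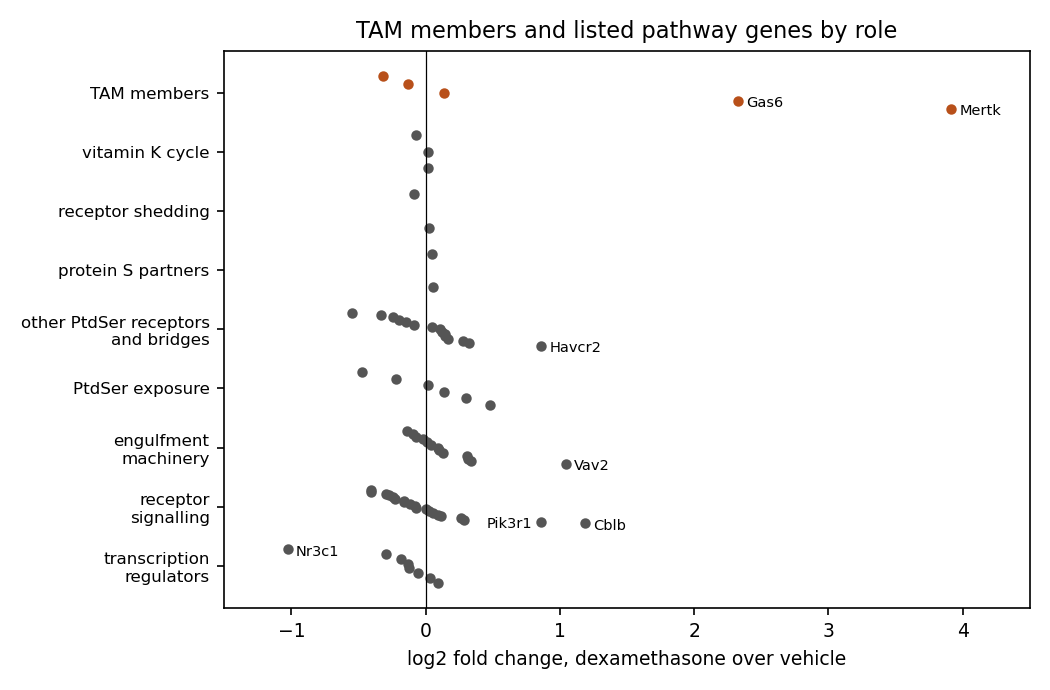
Log2 fold change (dexamethasone over vehicle) of the 5 TAM members, in orange, and of 69 listed pathway genes grouped by role (PtdSer, phosphatidylserine), 1 point per gene. Gas6 at 2.32 and Mertk at 3.91 lie outside the range of the listed genes, -1.03 to 1.185.

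Finally, the genes with the most similar profiles were looked up by the Euclidean distance of log2 CPM, centred per gene, over the 4 libraries, as a description of 4 points that share their libraries. Only 5 genes lay within 0.5 of Mertk, namely Mt2, a metallothionein gene (distance 0.42), Errfi1, an inhibitor of the EGF receptor (0.42), Serpina3m and Orm1, genes of acute-phase type proteins (0.45 each), and Ace, the angiotensin-converting enzyme gene (0.46). Errfi1 was as abundant as Mertk, at 14.4 and 227 scaled CPM in the group means, while Serpina3m and Orm1 had 0 counts with vehicle and 14 to 55 with dexamethasone. Their fitted log2 fold changes were 7.59 (SE 1.09) and 7.40 (SE 1.19), against 3.91 for Mertk. The log2 CPM used for distances had a prior count of 2, which narrows the gap of genes at 0 counts. Within 0.5 of Gas6 there were 20 genes, led by the interleukin-6 receptor gene Il6ra (0.13), the clock gene Per1 (0.22), the protein kinase A subunit gene Prkar2b (0.24), the transcription factor gene Cebpd (0.26) and Tes (0.26). For Axl, Tyro3 and Pros1 the same distance held 6443, 6446 and 7745 genes, so their nearest genes single out little. These were Naxd, Prdm11, Fat1, C130050O18Rik and Ucp3 for Axl, Zdhhc9, Trp63, Dyrk2, 4930479D17Rik and Cpeb1 for Tyro3, and Pip5k1a, Tfap4, Cd109, Slc9a9 and Chtf8 for Pros1.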

How the data were processed

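The authors deposited raw read counts per gene, 1 column per library, in one table. Per the submitters' processing notes, TopHat2 2.0.13, SAMtools 1.1, HTSeq 0.6.1 and DESeq2 1.18.1 and the build mm9 were used. The annotation, the strand setting and whether introns were counted are not given in the sources used here. Per the labels' protocols, a stranded total RNA kit and a stranded mRNA kit are both named.

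Of 23333 rows, 51 repeated an earlier gene with its counts and were removed, leaving 23282. Groups and replicate numbers came from the sample titles. filterByExpr (minimum count 10, minimum total 15) kept 13285 genes, which were scaled by TMM and tested with edgeR 4.0.16 (R 4.3.3) (two-sided quasi-likelihood test, a group term and no other), Benjamini-Hochberg adjusted over all tested genes, at a threshold of 0.05. Over all genes 5 were higher and 0 lower (543 and 225 at an unadjusted p under 0.05; 235 and 53 by DESeq2 1.42.0). The scripts were tested on simulated data. "Apart" means that both libraries of one group exceeded both of the other. Log2 CPM for distances had a prior count of 2. Lengths, gene order and overlaps came from GENCODE M21 (GRCm38), matched on Ensembl identifiers, and upstream sequences from RefSeq (GRCm38.p6), where all 5 members matched; gene coordinates are not given because the build of the counts differs.

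The members and gene lists were chosen with earlier results of these data known, and Nr3c1, Cblb and Pik3r1 were among those results. The named genes were the members, any listed or neighbouring gene past the threshold, the neighbours of Mertk and the 5 nearest profiles of each member. Also named were up to 4 genes per role with the widest change among those with groups apart. The 3 other receptor tyrosine kinases most abundant in vehicle were named on each length. The values of 2 listed genes are not reported here. A few others are named to describe a role, chosen after their values were seen. Alternatives were DESeq2 size factors, library size only, no filter beyond 1 count, DESeq2's Wald test, the replicate number as a block, and leaving out each library. Markers of endothelial and of Schwann or neural cells summed to at most 2.57 and 9.25 scaled CPM.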

Additional observations from a re-analysis of the deposited data

How the results depend on the processing

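The log2 fold changes of Mertk, Gas6, Tyro3 and Pros1 kept their direction under DESeq2 size factors, library size only, no filter beyond 1 count, DESeq2's Wald test, the replicate block and each omission of a library, with Mertk between 3.81 and 4.02 and Gas6 between 2.14 and 2.56; Axl changed sign once, at -0.05 without vehicle replicate 1. Per kb of gene span in place of exon, vehicle levels were 0.123 for Mertk, 3.04 for Axl, 0.254 for Tyro3, 0.422 for Gas6 and 0.327 for Pros1, since the divisor is longer; with library size only Tyro3 was at 0.847 per exonic kb.

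Counts of calls depended on the test, and the cause was not tested. Against 5 higher and 0 lower genes in all, no filter gave 23 higher, and DESeq2's Wald test 235 higher and 53 lower. In the pathway list, with 0 in each direction in edgeR, DESeq2 called 3 higher and 1 lower, and among the other receptor tyrosine kinases, again with 0, it called 1 higher. Leaving out single libraries gave 4 to 84 higher and 0 to 109 lower genes in all, both highest without vehicle replicate 2. There were 24 higher without dexamethasone replicate 1 and 28 without dexamethasone replicate 2. The pathway list had 0 to 1 higher and 0 to 1 lower, and the receptors 0 to 1 higher and 0 to 3 lower. Without vehicle replicate 2 the pathway calls were Vav2 higher and Xkr4 lower, and the receptors called lower were Epha5, Erbb4 and Ntrk2. Vehicle replicate 1 is then the only control. In vehicle replicates 1 and 2, Xkr4 had 63 and 10 counts, Epha5 57 and 6, Erbb4 167 and 6, and Ntrk2 62 and 1. These lower calls thus rest on the high counts of vehicle replicate 1. Xkr4, Epha5 and Ntrk2 did not pass the filter with all libraries, so they are not among the genes tested there.

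The labels do not say that a replicate number marks a shared batch, and 2 pairs cannot establish pairing; the differences of replicate 1 from 2 correlated between groups over 13285 genes (r = 0.734), which are not independent replicates. With the replicate block, 913 genes were higher and 768 lower (6.87% and 5.78%), with 9 higher and 5 lower in the pathway list, 5 and 13 among the other receptors, and 1 and 1 beside Mertk (Tmem87b higher, Ttl lower). Mertk was at 3.89 and Gas6 at 2.32 with the block. The depth limits Tyro3 most, on 96 counts in the smallest library.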
